A study of Homo sapiens with 9 samples.

Results

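NCI-H716 cells carrying a YAP mutant vector were compared with NCI-H716 cells carrying a control vector, on 3 arrays of each, 6 of the 9 arrays of the series. Every named probe above background entered the comparison, 19262 of 47230 probes, and each gene was read from its brightest such probe, which gave 14634 genes. NCI-H716 is an established human colorectal cancer cell line with enteroendocrine traits, and the remaining 3 arrays held untreated cells of the same line. All arrays were Illumina bead arrays of biotin-labelled RNA. The labels call the groups "YAP mutant vector", "control vector" (titled Mock) and, for the untreated cells, "none", and the series title speaks of YAP1 over-expression. They do not state which residue of YAP was changed, which promoter the vector used, how it was delivered, or whether a vector line was a pool or 1 clone. Both compared groups carried a vector, so the comparison asks what mutant YAP changed beyond carrying one. Nothing in the labels says that the 3 replicates of a group were separate cultures. The p-values therefore reflect the spread of these arrays alone, and that spread may be technical, while 3 arrays per group limit the precision.

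YAP is a transcriptional co-activator at the end of the Hippo kinase pathway. The kinases MST and LATS phosphorylate it and hold it in the cytoplasm. YAP that escapes them enters the nucleus, where it binds DNA through TEAD factors, often beside AP-1 factors, and raises genes of growth, survival, matrix and the cytoskeleton. In the intestine YAP is known for its part in regeneration of the epithelium after injury and in colorectal tumours. Mutants that the LATS kinases cannot phosphorylate are common tools for switching it on, but the labels do not say that this vector is one.

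With mutant YAP, 50 genes rose and 3 fell relative to the control vector. The largest rises were those of RHBDF1 and CCN2, each more than 4-fold, followed by KRT4 and MYOF. CGN, VIPR1 and BCL2L1 rose by between 1.79-fold and 1.98-fold, and the rise of MSLN is known only as a bound of at least 1.91-fold. The calponin genes CNN2 and CNN3, the caveolar genes CAVIN1 and CAVIN2, the calpain genes CAPN2 and CAPN9 and the LIM adaptor genes AJUBA and TRIP6 rose by smaller amounts, and FOS fell. A gene was called when its Benjamini-Hochberg adjusted p from limma, over all 14634 genes, was under 0.05. The 53 calls were 0.362% of the genes tested, with 0.342% called higher and 0.0205% lower. At an unadjusted p under 0.05 the counts were 559 genes higher and 398 lower. The median log2 difference over all genes was -0.00, and the 5th and the 95th percentile lay at -0.19 and 0.21. Of the 53, 48 were above background on at least 1 array of both vector groups. Among these 48 only RHBDF1, CCN2, KRT4 and MYOF changed by 2-fold or more, and the smallest rise was 1.38-fold. A gene entered the test when it lay above background on 3 or more of the 9 arrays. MSLN, KRT80 and RBMS2 did so only through the YAP mutant arrays and LOC731658 only through the control vector arrays, so that they were admitted by the group in which they were high. SEMA3B and C1orf105 had just 1 array above background outside the YAP mutant group, so they too needed that group to pass. With no filter, over 30817 genes, 58 genes were called, all 53 among them. In all 53 called genes the YAP mutant arrays lay wholly beyond the control vector arrays, as they did in 11.5% of all genes (5.81% higher and 5.69% lower). The 53 had been chosen by a test on these same arrays, so this separation adds no support to the calls.

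**Figure D1:**
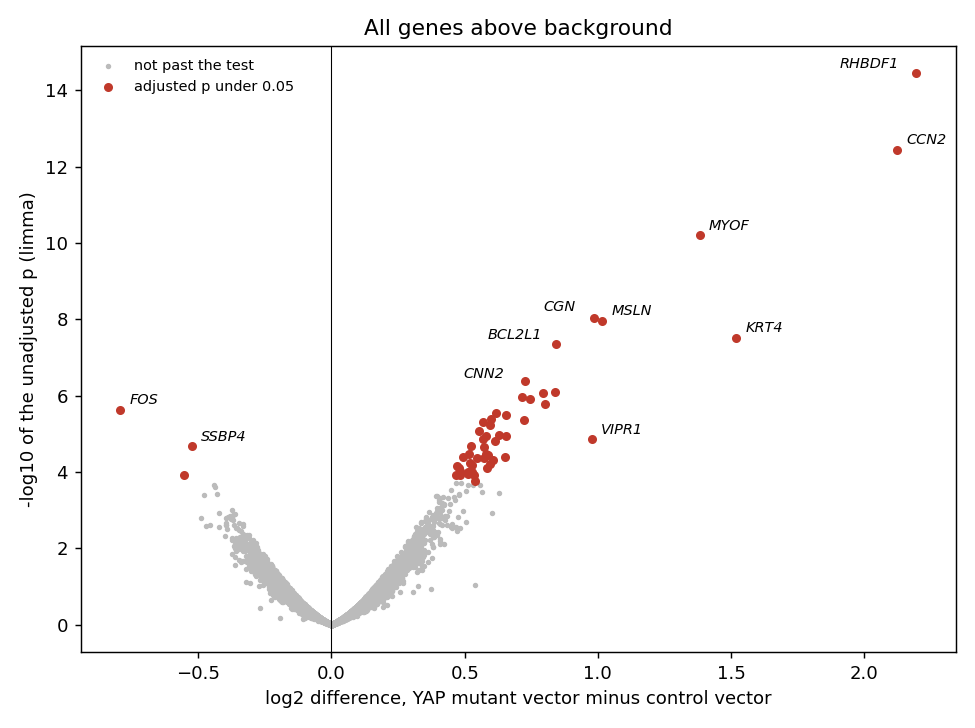
Each point is 1 of the 14634 genes above background, with the log2 difference (YAP mutant vector minus control vector) on the x axis and the negative log10 of limma's unadjusted p on the y axis. Red points passed an adjusted p under 0.05: 50 lie on the right and 3 on the left, and RHBDF1 and CCN2 stand farthest out, at differences of 2.19 and 2.12.

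The counts depended on the arrays and on the scaling. Of the 53 genes, 20 were called again whichever array was left out, and 33 lost the call, or could not be tested, without at least 1 array. Without YAP mutant replicate 2 the total was 23 genes, without control vector replicate 2 it was 27, and without YAP mutant replicate 1 it was 32. Scaling each array to a common median in place of quantile normalization (median scaling) left 10 genes: RHBDF1, CCN2, KRT4, MYOF, MSLN, CGN, BCL2L1, KRT80, AJUBA and C1orf105. RHBDF1, CCN2, KRT4, MYOF, CGN and BCL2L1 were called in all 22 alternatives. AJUBA was called in each of the 21 in which it was tested. All 53 kept their sign in every alternative in which they were tested.

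**Figure D2:**
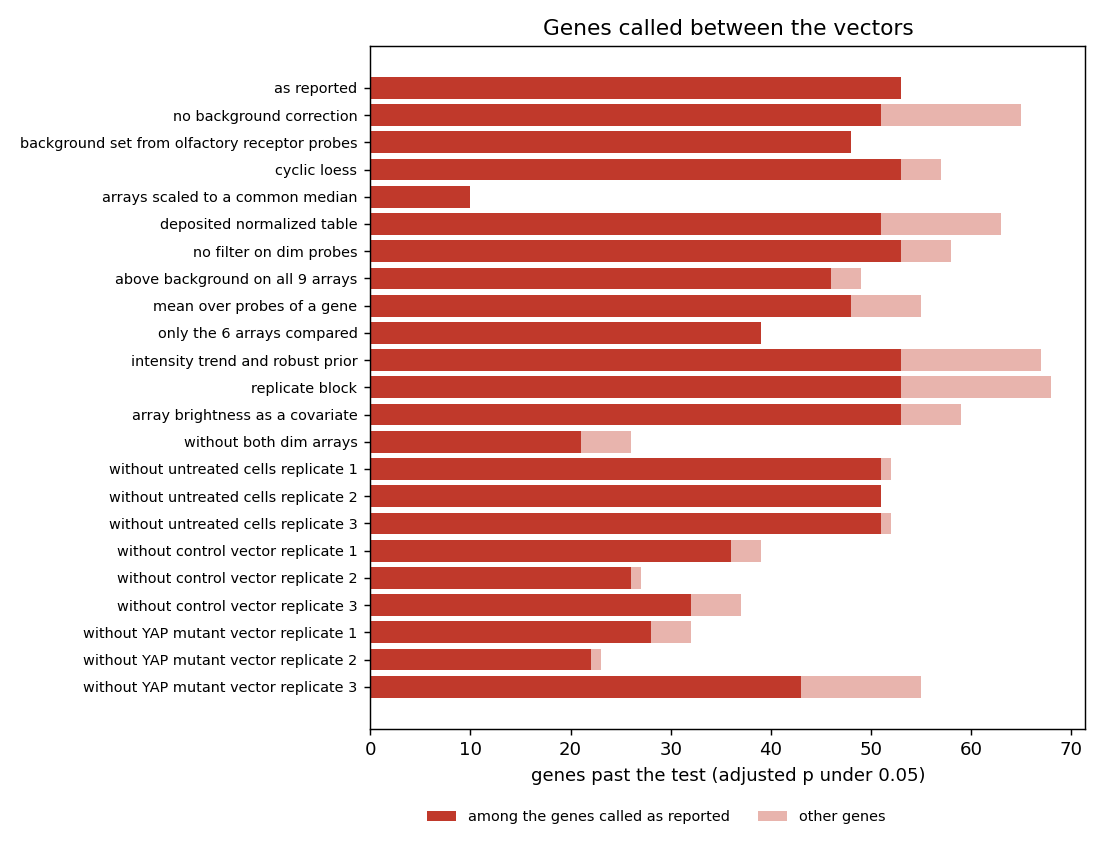
Number of genes past an adjusted p under 0.05 between the vectors (x axis) as reported and under each of the 22 alternatives (rows). Dark bars count genes among the 53 reported and pale bars other genes; the shortest bar, 10 genes, is that of arrays scaled to a common median, and the longest, 68, that of a fit with replicate block.

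Median raw intensities were 105, 122 and 122 on the YAP mutant arrays, 129, 120 and 104 on the control vector arrays and 125 to 129 on the untreated arrays. Replicates within a group correlated at 0.994 or above across probes, and the share of probes above background ran from 38.8% to 41.3%. Control vector replicate 3 and YAP mutant replicate 1 were the dimmest arrays. Without both of them 26 genes were called, 21 of them among the 53. On the first principal component, 31.9% of the variance, the YAP mutant arrays scored 9.47, 6.79 and 13.36. Control vector arrays scored 1.07, 1.80 and 9.01, and untreated arrays between -15.01 and -13.13. Control vector replicate 3 lay within the range of the YAP mutant arrays on it, and both vector groups lay apart from the untreated cells.

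YAP1 itself was read by 1 probe, ILMN_1709479. It gave log2 intensities of 8.06, 7.82 and 7.91 on the YAP mutant arrays, 7.85, 7.79 and 7.94 on the control vector arrays and 8.29, 8.17 and 8.01 in untreated cells. The vector groups overlapped, with a difference of 0.07 ± 0.11 (standard error from limma, 3 arrays each, adjusted p = 0.964). Against untreated cells the difference was -0.23 for the YAP mutant vector (adjusted p = 0.227) and -0.30 for the control vector (adjusted p = 0.154). Where this probe lies on the transcript is not given in the sources used here, so its signal does not check the labels.

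Promoter sequences are shown for RHBDF1 and CCN2, the pair with the largest rises, and for C1orf105, because they hold the TEAD motif GGAATG near the start. They are 3 of 10 genes with a promoter in the table, among the 12 genes with an approved symbol and the largest fitted rises. MSLN and KRT80 had none there. The windows run from 250 bases before to 50 bases after the start of the gene, 5′ to 3′ on the strand of the gene, from RefSeq on GRCh38.p14. Capitals mark GGAATG or its reverse complement CATTCC. The windows are chr6:131951323-131951622 (minus strand) for CCN2, chr16:72582-72881 (minus strand) for RHBDF1 and chr1:172452643-172452942 (plus strand) for C1orf105.
CCN2: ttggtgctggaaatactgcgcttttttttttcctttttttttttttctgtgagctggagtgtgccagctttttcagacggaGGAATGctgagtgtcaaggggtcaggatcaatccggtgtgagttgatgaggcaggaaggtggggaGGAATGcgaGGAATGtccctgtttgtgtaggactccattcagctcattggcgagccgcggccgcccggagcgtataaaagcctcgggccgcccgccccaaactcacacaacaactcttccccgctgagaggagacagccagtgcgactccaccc
RHBDF1: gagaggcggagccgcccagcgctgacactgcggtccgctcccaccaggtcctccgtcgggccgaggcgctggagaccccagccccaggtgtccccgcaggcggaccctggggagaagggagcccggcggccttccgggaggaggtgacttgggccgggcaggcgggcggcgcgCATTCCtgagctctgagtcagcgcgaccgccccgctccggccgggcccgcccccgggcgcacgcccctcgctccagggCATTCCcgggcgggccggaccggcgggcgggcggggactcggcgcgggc
C1orf105: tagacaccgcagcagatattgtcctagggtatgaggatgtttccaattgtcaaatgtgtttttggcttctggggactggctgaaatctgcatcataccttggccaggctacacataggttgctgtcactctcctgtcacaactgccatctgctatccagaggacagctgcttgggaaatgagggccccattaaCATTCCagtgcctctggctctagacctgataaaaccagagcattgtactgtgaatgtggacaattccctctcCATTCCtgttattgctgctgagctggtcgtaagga
CCN2 held 3 matches, 169, 104 and 95 bases before its start. In RHBDF1 the matches lay 77 bases before and 1 base after the start, with a match to the AP-1 motif TGANTCA 64 bases before it. C1orf105 held matches 57 bases before and 15 bases after its start.

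Of the 50 genes that rose, 36 had a promoter in the table, and 8 of those (22.2%) held GGAATG on either strand. The shares were 10.6% of the 9232 tested genes with a promoter and 14% of all 27305 promoters in the table. The other 5 holders were CAPN9, CAVIN2, VAMP5, TRIP6 and IGFBP6. TGANTCA, searched on both strands, was found in 4 of the 36 (11.1%), namely RHBDF1, ERBB2, CAPN2 and TRIP6, against 4.46% of the tested genes and 7.76% of all promoters. RHBDF1 and TRIP6 held both motifs, and their matches did not overlap. A match in letters describes the sequence and is not a bound site.

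RHBDF1, an inactive rhomboid also called iRhom1 that helps carry the shedding protease ADAM17 to the cell surface, rose more than any other gene. Its log2 intensities were 9.92, 10.07 and 9.83 on the YAP mutant arrays, 7.99, 7.70 and 7.54 on the control vector arrays and 7.44, 7.47 and 7.34 in untreated cells. All 3 YAP mutant arrays lay above all 6 others. The rise over the control vector was 4.57-fold (log2 difference 2.19 ± 0.11, adjusted p = 5.31e-11). It ranged from 2.01 to 2.32 over the 22 alternatives. The control vector lay 0.33 above untreated cells, which did not pass the test (adjusted p = 0.147).

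ADAM17 sheds the ligands of the EGF receptor family, and 14 of the 20 rhomboids, EGFR ligands and receptors listed were above background. RHBDF1 and ERBB2 rose and none fell, with a list median of 0.03 (0.01 under median scaling). ERBB2, the receptor kinase HER2, had 7.55, 7.62 and 7.49 on the YAP mutant arrays and 7.04, 6.78 and 6.87 on the control vector arrays. That was a rise of 1.58-fold (0.66 ± 0.11, adjusted p = 0.00288), which did not pass under median scaling (adjusted p = 0.221), and its other probes were not above background. EGFR differed by 0.26 ± 0.11 (adjusted p = 0.685) and ERBB3 by -0.20 ± 0.10 (adjusted p = 0.803), and neither passed. The ligand gene AREG, often named as a YAP target, was not above background and was not tested.

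CCN2, which the array lists as CTGF, encodes a secreted matrix protein and is a widely used reporter of YAP and TEAD activity. Its log2 intensities were 8.85, 9.34 and 8.57 on the YAP mutant arrays, 6.93, 6.73 and 6.72 on the control vector arrays and 6.80, 6.94 and 6.85 in untreated cells. The untreated and control vector arrays sat together just above the background floor, which ran from 6.46 to 6.51 over the arrays, and the YAP mutant arrays stood clear of both. The rise over the control vector was 4.36-fold (2.12 ± 0.14, adjusted p = 2.64e-09). A second probe for CCN2 gave a smaller difference, 1.41.

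Of 26 listed YAP/TAZ-TEAD targets 15 were above background, and 3 of those rose (CCN2, MYOF and AJUBA) while none fell. The median of the 15 was 0.10 (0.07 under median scaling), and 14 lay above 0. In 5 of them the YAP mutant arrays lay wholly above the control vector arrays, against 5.81% of all genes. Since this and the other lists were chosen with earlier results of these data known, such counts are descriptive. MYOF, myoferlin, a membrane protein of vesicle fusion and membrane repair, had 8.47, 8.47 and 8.03 on the YAP mutant arrays. It had 6.95, 7.02 and 6.85 on the control vector arrays and 6.998, 7.01 and 7.21 in untreated cells, so that the control vector and untreated arrays did not stand apart. Its rise was 2.61-fold (1.38 ± 0.12, adjusted p = 3e-07), and its other kept probes gave 0.92 and 0.48. AJUBA, a LIM-domain adaptor that binds LATS kinases and so restrains Hippo signalling, had 7.63, 7.55 and 7.24 on the YAP mutant arrays, 6.58, 6.87 and 6.59 on the control vector arrays and 6.65, 6.47 and 6.66 in untreated cells. AJUBA rose 1.73-fold (0.79 ± 0.12, adjusted p = 0.00123).

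No other target on the list passed the test. CCN1, the close relative of CCN2, had 7.30, 7.57 and 7.18 on the YAP mutant arrays and 7.05, 7.05 and 6.80 on the control vector arrays. These groups did not overlap, but the difference of 0.38 ± 0.11 did not pass (adjusted p = 0.264). ANKRD1 and AXL, both in common use as YAP reporters, were not above background. Among 19 genes of the Hippo pathway itself none passed, the median was -0.01 (-0.03 under median scaling and without the 2 dim arrays) and the differences ran from -0.10 to 0.20. TEAD3, one of the DNA-binding partners, differed by 0.20 ± 0.14 (adjusted p = 0.904), and FRMD6, an upstream activator, by 0.14 ± 0.11.

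**Figure D3:**
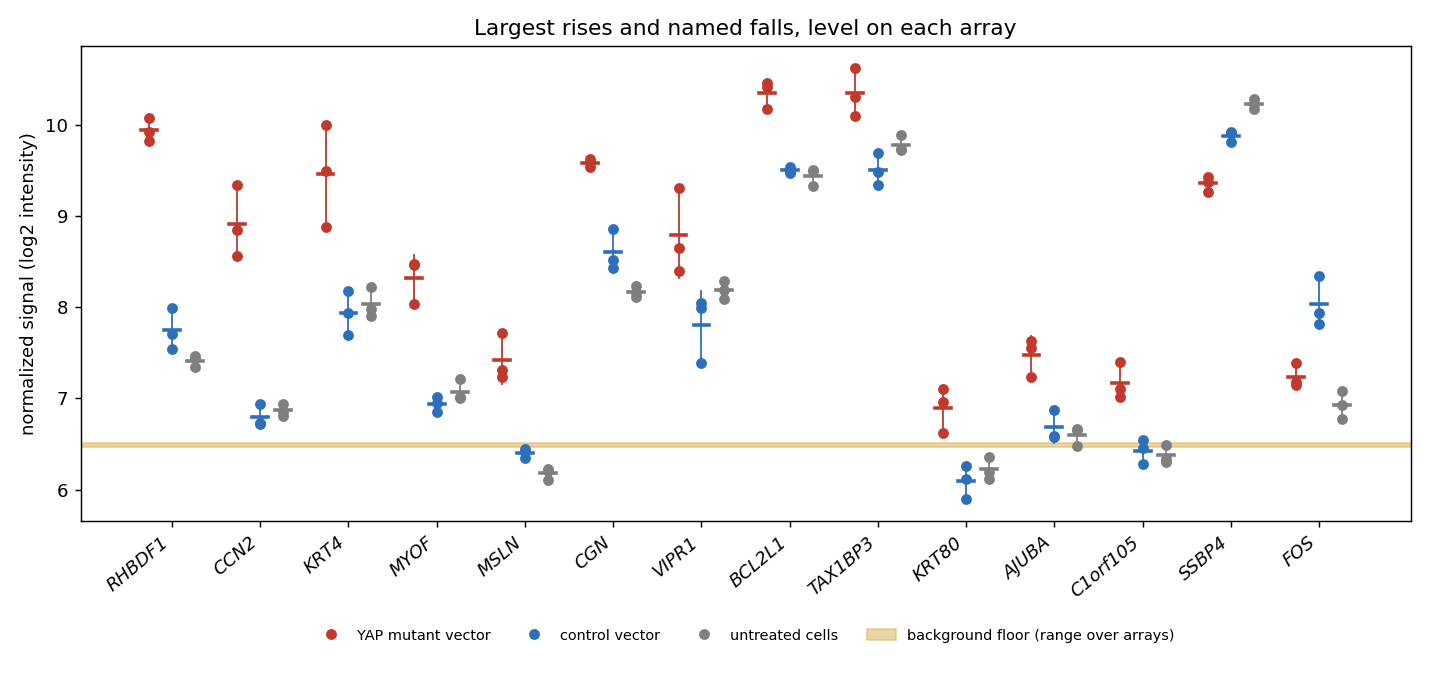
Normalized signal (log2 intensity, y axis) of the 12 genes with an approved symbol and the largest fitted rises and of SSBP4 and FOS, which fell, on each array: YAP mutant vector (red), control vector (blue) and untreated cells (grey). Points are arrays, long ticks means, lines 1 SD, and the band the range of the background floor over arrays. In the 12 risen genes all red points lie above all blue ones, and the blue and grey points of MSLN and KRT80 lie under the floor.

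Among epithelial structural genes, KRT4 and CGN rose most. KRT4, a keratin of moist stratified epithelia, had 9.50, 9.997 and 8.87 on the YAP mutant arrays, 7.94, 8.17 and 7.69 on the control vector arrays and 8.22, 7.90 and 7.98 in untreated cells. The YAP mutant arrays spread over more than 1 log2 unit, the lowest still above every other array, and the rise was 2.87-fold (1.52 ± 0.18, adjusted p = 7.39e-05). KRT80, another epithelial keratin, lay above background on all 3 YAP mutant arrays (7.10, 6.96 and 6.62) and on no control vector array (6.26, 5.90 and 6.12) or untreated array (6.36, 6.19 and 6.12). Its rise was at least 1.33-fold against the floor. The adjusted p of the fitted difference, which uses signals under the floor, was 0.00191, and 4.73e-04 with no filter on dim probes. KRT80 could not be tested without any 1 of the YAP mutant arrays, because it then missed the filter. Of the 7 keratins above background, of 17 listed, only these passed. KRT8, the main keratin of simple epithelia, differed by 0.48 ± 0.14 and did not pass (adjusted p = 0.271). Leaving out YAP mutant replicate 3, the lowest of its group in 38 of the 50 risen genes, gave 0.68 (adjusted p = 0.0191). KRT19, another keratin of simple epithelia, differed by 0.27 ± 0.11 (adjusted p = 0.643). The median of the 7 was 0.27, with KRT80 counted, which entered only through the YAP mutant arrays. Without the 2 dim arrays KRT80 was not tested and the median of the remaining 6 was 0.13, so these medians cover different genes.

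CGN, cingulin, which ties tight junctions to actomyosin, had 9.54, 9.63 and 9.59 on the YAP mutant arrays, 8.52, 8.43 and 8.86 on the control vector arrays and 8.12, 8.23 and 8.16 in untreated cells. The 3 groups did not overlap: the control vector lay between the others. The rise of the YAP mutant vector over the control vector was 1.98-fold (0.98 ± 0.11, adjusted p = 3.19e-05), and the control vector stood 0.43 above untreated cells (adjusted p = 0.0384). CGN was the 1 gene called among 17 epithelial junction genes, whose median was -0.03 with 12 below 0 (-0.05 under median scaling and -0.01 without the 2 dim arrays). JUP, plakoglobin of desmosomes, differed by 0.45 ± 0.13 (adjusted p = 0.248), EPCAM by -0.36 ± 0.15 (adjusted p = 0.68) and CGNL1, the paralog of cingulin, by -0.20 ± 0.11 (adjusted p = 0.807).

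MSLN encodes mesothelin, a surface glycoprotein of mesothelium that many carcinomas make. Its log2 intensities were 7.31, 7.72 and 7.23 on the YAP mutant arrays, all above background, and 6.35, 6.41 and 6.45 on the control vector arrays, none above it. In untreated cells they were 6.21, 6.10 and 6.22, also below. The rise was at least 1.91-fold against the floor. The adjusted p (3.19e-05, and 2.05e-06 with no filter on dim probes) belongs to the fitted difference, which uses control signals under the floor, and does not test this bound. Like that of KRT80, the rise could not be tested when a YAP mutant array was left out. Of the other mesothelial markers listed, CALB2 differed by -0.15 ± 0.11 (adjusted p = 0.904). UPK3B lay above background on 2 YAP mutant arrays and on no control vector array and did not pass (adjusted p = 0.962). LRRN4, MUC16 and WT1 were not tested, with LRRN4 and MUC16 below background on all YAP mutant arrays. The summed intensity of the 6 mesothelial markers ran from 541 to 636 on the YAP mutant arrays and from 498 to 523 on the control vector arrays. This sum includes MSLN itself, and no sum without MSLN was made, so it does not show a rise of the other markers.

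BCL2L1, which encodes the survival protein BCL-XL, had 10.45, 10.41 and 10.17 on the YAP mutant arrays, 9.50, 9.54 and 9.47 on the control vector arrays and 9.50, 9.49 and 9.33 in untreated cells. The 6 arrays without mutant YAP lay close together, and the YAP mutant arrays all lay above them. The rise was 1.79-fold (0.84 ± 0.10, adjusted p = 9.41e-05). A second, dimmer probe gave 0.28, with overlapping vector groups, and did not pass in a limma fit over all probes above background (adjusted p = 0.759). No other of the 12 BCL2 family genes above background passed the test, and the family's median was -0.02. That median turned to 0.03 without the 2 dim arrays. The pro-death genes PMAIP1 (-0.19 ± 0.10, adjusted p = 0.804), BCL2L11 (0.18 ± 0.13, adjusted p = 0.884) and BAD (0.16 ± 0.11, adjusted p = 0.899) did not pass.

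VIPR1, the receptor for vasoactive intestinal peptide, had 8.65, 9.31 and 8.40 on the YAP mutant arrays, 8.05, 7.99 and 7.38 on the control vector arrays and 8.09, 8.19 and 8.28 in untreated cells. YAP mutant replicate 2 was far the highest and control vector replicate 3 far the lowest. The rise of 1.97-fold (0.98 ± 0.18, adjusted p = 0.00776) did not pass without either of them (adjusted p = 0.0703 and 0.0612). TAX1BP3, a small PDZ-domain protein that binds beta-catenin, had 10.30, 10.63 and 10.10 on the YAP mutant arrays, 9.48, 9.69 and 9.34 on the control vector arrays and 9.89, 9.73 and 9.73 in untreated cells. It rose 1.79-fold over the control vector (0.84 ± 0.12, adjusted p = 0.00123) and by 0.56 over untreated cells (adjusted p = 0.00725). Under median scaling the rise over the control vector did not pass (adjusted p = 0.178). C1orf105 had 7.39, 7.01 and 7.10 on the YAP mutant arrays and 6.54, 6.45 and 6.28 on the control vector arrays, of which 1 lay above background. In untreated cells it had 6.31, 6.49 and 6.34. It rose 1.68-fold (0.75 ± 0.11, adjusted p = 0.00152), and not past the test without the 2 dim arrays (adjusted p = 0.0628).

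The calponins CNN2 and CNN3 and transgelin, all of the actin cytoskeleton, rose by 1.44-fold to 1.65-fold. Of 22 cytoskeletal and SRF target genes above background 4 rose and none fell. Their median was 0.14, and 19 lay above 0. In 10 the YAP mutant arrays lay wholly above the control vector arrays, against 5.81% of all genes, in a list chosen with earlier results of these data known. CNN2, a calponin that binds and steadies actin filaments, had 9.94, 10.19 and 9.88 on the YAP mutant arrays, 9.33, 9.22 and 9.30 on the control vector arrays and 9.30, 9.31 and 9.33 in untreated cells. The rise was 1.65-fold (0.72 ± 0.10, adjusted p = 7.67e-04), and did not pass under median scaling (adjusted p = 0.221). CNN3, another calponin, rose by 0.55 ± 0.11 (adjusted p = 0.0171) and TAGLN, transgelin, by 0.53 ± 0.11 (adjusted p = 0.0315). Each of these smaller rises lost its call without several single arrays. The highest adjusted p was 0.189 for CNN3 and 0.299 for TAGLN, both without YAP mutant replicate 2. ACTG2, the enteric smooth muscle actin, was outside the list and rose by 0.57 ± 0.11 (adjusted p = 0.0171), and missed without any 1 of YAP mutant replicates 1 and 2 and control vector replicates 2 and 3 (adjusted p between 0.0695 and 0.207).

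LIM-domain adaptors link adhesions and actin to the Hippo kinases. Among 21 of them AJUBA and TRIP6 rose, none fell, and the median was 0.04. TRIP6, of the zyxin family, had 9.80, 9.85 and 9.38 on the YAP mutant arrays and 9.28, 9.01 and 9.12 on the control vector arrays. Its rise of 0.54 ± 0.12 was the weakest call (adjusted p = 0.0467), and leaving out any array but YAP mutant replicate 3 ended it (adjusted p between 0.0535 and 0.315). LMCD1 differed by 0.45 ± 0.11 (adjusted p = 0.127) and LPP by 0.34 ± 0.12 (adjusted p = 0.468), both without overlap between the groups.

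Among 15 ferlins, annexins and S100 proteins, which bind calcium at membranes, MYOF and S100A4 rose. The median of the 15 was 0.14 (0.09 under median scaling), and 13 lay above 0. In 8 of them the YAP mutant arrays lay wholly above the control vector arrays, against 5.81% of all genes. As the list was chosen with earlier results of these data known, this count is no test of it. S100A4, a protein tied to cell motility, had 12.52, 12.51 and 12.16 on the YAP mutant arrays, 11.84, 11.63 and 11.84 on the control vector arrays and 11.49, 11.40 and 11.53 in untreated cells. It rose by 0.63 ± 0.11 (adjusted p = 0.00693), its second probe gave 0.62, and the call was lost without YAP mutant replicate 1 (adjusted p = 0.0675), YAP mutant replicate 2 (0.0703) or control vector replicate 2 (0.0731). ANXA1 lay just outside the threshold, at 0.53 ± 0.12 (adjusted p = 0.055), and passed in 7 of the alternatives. S100A6 differed by 0.32 ± 0.11 and did not pass (adjusted p = 0.391).

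Several called genes outside the lists encode membrane or matrix proteins. CAVIN1 and CAVIN2, coat proteins of caveolae, rose by 0.58 ± 0.11 (adjusted p = 0.0159) and 0.59 ± 0.10 (adjusted p = 0.0042). The call of CAVIN1 was lost without YAP mutant replicate 2 (adjusted p = 0.18) and without 3 other single arrays. TSPAN4, a tetraspanin, rose by 0.71 ± 0.11 (adjusted p = 0.00146). It had 10.99, 11.05 and 10.93 on the YAP mutant arrays and 10.41, 10.30 and 10.10 on the control vector arrays, with no overlap, and its second kept probe gave 0.72. PXDN, peroxidasin, which cross-links collagen of basement membranes, had 8.87, 9.07 and 8.999 on the YAP mutant arrays, 8.51, 8.20 and 8.06 on the control vector arrays and 7.70, 8.03 and 7.89 in untreated cells. PXDN rose by 0.72 ± 0.12 (adjusted p = 0.00347). Under median scaling neither TSPAN4 (adjusted p = 0.548) nor PXDN (adjusted p = 0.600) passed.

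CAPN2 and CAPN9, calcium-dependent calpain proteases, rose by 0.57 ± 0.10 (adjusted p = 0.00776) and 0.59 ± 0.12 (adjusted p = 0.022). Without YAP mutant replicate 2 their adjusted p values were 0.0703 for CAPN2 and 0.241 for CAPN9, and without control vector replicate 2 they were 0.0607 and 0.0731. CAPN9 also missed when control vector replicate 3 (0.153) or YAP mutant replicate 1 (0.0632) was left out. VAMP5, a vesicle SNARE, had 10.29, 10.31 and 10.27 on the YAP mutant arrays, 9.66, 9.72 and 9.79 on the control vector arrays and 9.22, 9.20 and 9.25 in untreated cells. Its 3 groups stood clear of each other in that order, and it rose by 0.57 ± 0.09 (adjusted p = 0.00381), though not past the test under median scaling (adjusted p = 0.758). SEMA3B, a secreted semaphorin, was above background on all 3 YAP mutant arrays and on no control vector array, a rise of at least 1.41-fold. The adjusted p of its fitted difference was 0.00693, 0.00375 with no filter on dim probes and 0.0958 without YAP mutant replicate 2. TNFRSF12A, the receptor for the cytokine TWEAK, rose by 0.61 ± 0.11 (adjusted p = 0.00854). Its call was lost without control vector replicate 2 (adjusted p = 0.0829) or 3 (0.0605). PPP1R15A, the phosphatase subunit GADD34 of the stress response, rose by 0.65 ± 0.13 (adjusted p = 0.0171), and missed without any 1 of YAP mutant replicates 1 and 2 and control vector replicates 2 and 3 (adjusted p between 0.0695 and 0.189).

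Another 18 risen genes had approved symbols or file names and differences between 0.47 and 0.62. Among them were the phosphatase receptor gene PTPRU (0.59), the clathrin adaptor gene AP1M2 (0.58), ARHGAP23 (0.57) and AVPI1 (0.55). The binding protein gene for insulin-like growth factors IGFBP6 (0.53), the organic anion exporter gene ABCC3 (0.48) and the cadherin gene CDH6 (0.47) were further examples. Of the 18, MGC13057, FLJ40504 and AVPI1 kept the call whichever array was left out, and the other 15 lost it, or could not be tested, without at least 1. The highest of their adjusted p values without 1 array was 0.299, for IGFBP6 and PLPP1 without YAP mutant replicate 2. CDH6 was the 1 called gene with another kept probe of opposite sign, at -0.00. Over all 53 genes, 12 had another kept probe, and 14 of 15 such probes had the sign of the called one.

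**Figure D4:**
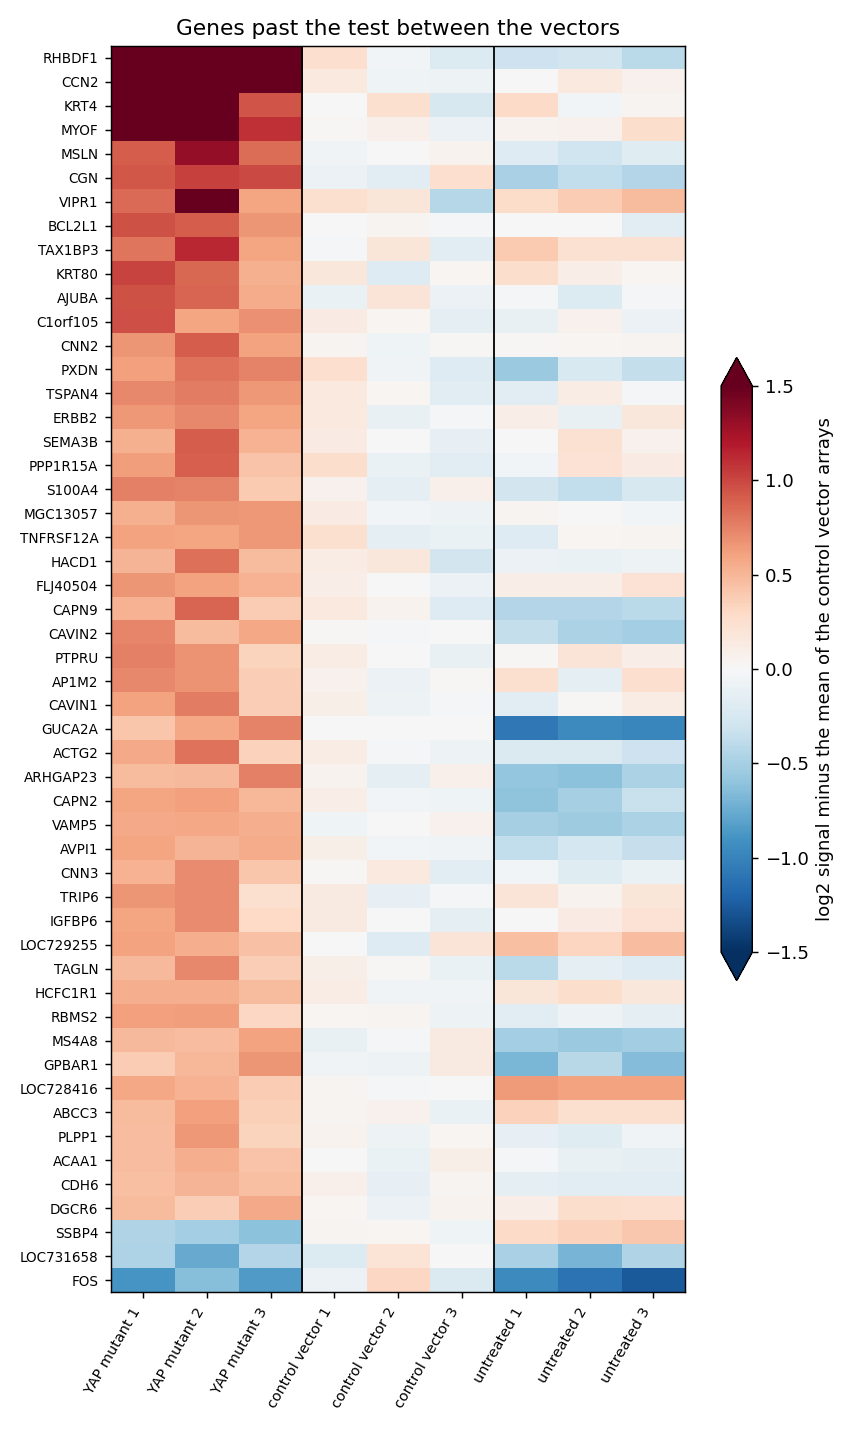
Log2 signal of 52 of the 53 called genes (rows, ordered by fitted difference, rises at the top) on each of the 9 arrays (columns), minus the mean of the 3 control vector arrays. Red is higher and blue lower, with colours saturating at 1.5; most risen genes are pale in the untreated columns, while GUCA2A is dark blue there and LOC728416 is red.

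The intestinal list gave 1 call among 14 genes above background, with a median of 0.05 and 11 above 0. Without the 2 dim arrays the median was 0.16, with 8 above 0. GUCA2A, guanylin, a peptide hormone of the gut epithelium, had 10.61, 10.76 and 10.93 on the YAP mutant arrays, 10.20, 10.19 and 10.18 on the control vector arrays and 9.11, 9.23 and 9.21 in untreated cells. It rose by 0.58 ± 0.10 over the control vector (adjusted p = 0.00693), and the control vector itself lay 1.00 above untreated cells (adjusted p = 7.51e-06). The rise over the control vector did not pass under median scaling (adjusted p = 0.9995). The sister hormone gene GUCA2B differed between the vectors by 0.31 ± 0.10 (adjusted p = 0.429), ELF3 by 0.40 ± 0.10 (adjusted p = 0.154) and MUC13 by 0.40 ± 0.12 (adjusted p = 0.318).

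Enteroendocrine genes check the identity of the line, and of 17 listed 12 lay above background on all 3 YAP mutant arrays and 13 on all 3 control vector arrays. PCSK2 and PYY were below background on every array of both vector groups, and NEUROD1 and PAX6 on all 3 control vector arrays. Their summed intensity ran from 51174 to 54347 on the YAP mutant arrays and from 51913 to 57885 on the control vector arrays. GCG, proglucagon, differed by -0.00 ± 0.11 (adjusted p = 0.997) and CHGA, chromogranin A, by -0.07 ± 0.11 (adjusted p = 0.965). Of 14 such genes GPBAR1, the bile acid receptor of these cells, rose by 0.51 ± 0.11 (adjusted p = 0.0343), and the call was lost without any 1 of control vector replicates 1 and 2 and YAP mutant replicates 2 and 3 (adjusted p up to 0.191). SCG2, secretogranin II, lay just outside the threshold at -0.44 ± 0.10 (adjusted p = 0.0544) and passed in 5 alternatives. The median of the 14 was -0.02 (-0.06 under median scaling and -0.01 without the 2 dim arrays).

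Only FOS, SSBP4 and the uncharacterised locus LOC731658 fell. FOS, the immediate early gene of the AP-1 factor, had 7.15, 7.39 and 7.18 on the YAP mutant arrays, 7.94, 8.34 and 7.82 on the control vector arrays and 7.08, 6.92 and 6.77 in untreated cells. The control vector arrays were the high ones, and the YAP mutant arrays lay near the untreated cells. FOS was lower with the YAP mutant vector than with the control vector (-0.79 ± 0.13, adjusted p = 0.00242). The control vector lay 1.11 above untreated cells (adjusted p = 2.72e-05), and the YAP mutant vector 0.32 above them (adjusted p = 0.155). Under median scaling the fall did not pass (adjusted p = 0.0892).

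Of 14 AP-1 and immediate early genes FOS alone passed, and the median was -0.04, or -0.14 without the 2 dim arrays. EGR1 differed by -0.42 ± 0.13 (adjusted p = 0.271), IER2 by -0.36 ± 0.13 (adjusted p = 0.468) and IER3 by 0.25 ± 0.11 (adjusted p = 0.68). SSBP4, of a family of single-stranded DNA binding proteins, had 9.43, 9.37 and 9.26 on the YAP mutant arrays, 9.92, 9.90 and 9.81 on the control vector arrays and 10.17, 10.23 and 10.28 in untreated cells. It fell by 0.52 (standard error 0.10, adjusted p = 0.0107) and was the 1 fallen gene whose YAP mutant arrays lay below all 6 others. The call was lost without any 1 of control vector replicates 1 and 2 and YAP mutant replicates 2 and 3 (adjusted p between 0.0544 and 0.0724), and under median scaling (0.676), and its second probe gave -0.32. LOC731658 had 6.23, 5.93 and 6.24 on the YAP mutant arrays, 6.48, 6.89 and 6.68 on the control vector arrays and 6.19, 5.99 and 6.23 in untreated cells, and only the control vector arrays were above background. It was at least 1.16-fold lower with the YAP mutant vector. The adjusted p of its fitted difference was 0.0347, and 0.0302 with no filter on dim probes. LOC731658 could not be tested without any 1 control vector array. It did not pass without YAP mutant replicate 1 (adjusted p = 0.0695), YAP mutant replicate 2 (0.300) or untreated replicate 1 (0.0583).

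The untreated cells give the level of the line without a vector. Among the 50 risen genes, 44 were also called higher with the YAP mutant vector than in untreated cells, a comparison in which 5.54% of all genes were called, 3.59% higher and 1.95% lower. The exceptions were TRIP6, HCFC1R1, ABCC3, DGCR6 and the uncharacterised loci LOC729255 and LOC728416. In 48 of the 50 all YAP mutant arrays lay above all 6 others, against 2.83% of all genes, but the 50 had been chosen for lying above the control vector arrays. The control vector differed from untreated cells in 10 of the 50, against 2.38% of all genes (1.65% higher and 0.724% lower). It was higher in CGN, CAVIN2, GUCA2A, ARHGAP23, CAPN2, VAMP5, MS4A8 and GPBAR1, by 0.43 to 1.00, and lower in LOC729255 (-0.41) and LOC728416 (-0.62). In the other 40, RHBDF1, CCN2, KRT4, MYOF, MSLN and BCL2L1 among them, no difference between the control vector and untreated cells was called. These comparisons share arrays, so their values are given side by side and are not independent.

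In 31 of the 50 risen genes YAP mutant replicate 2 was the highest of its group, against 32% of all genes, and in 38 YAP mutant replicate 3 was the lowest, also against 32%. On the control side, replicate 1 was the highest of its group in 30 of the 50 (35.1% of all genes) and replicate 3 the lowest in 27 (37.8%). The part of these array differences in the calls was not tested beyond the leave-one-out values.

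Lists for growth, stress and immune programmes gave no calls. The 18 MYC and ribosome biogenesis genes had a median of -0.12 with 4 above 0 (-0.19 without the 2 dim arrays), and the 14 p53 targets one of -0.10 with 2 above 0. RRP12 (-0.25 ± 0.10, adjusted p = 0.643), NOLC1 (-0.24 ± 0.10, adjusted p = 0.673) and GDF15 (-0.19 ± 0.11, adjusted p = 0.844) were among the lowest. The 28 replication and G2/M genes had a median of 0.00, which was -0.05 under median scaling and -0.02 without the 2 dim arrays. CCNE1, cyclin E1, differed by -0.40 ± 0.13 (adjusted p = 0.371). The 11 MAPK feedback genes had a median of 0.03, or -0.03 under median scaling, and SPRY1 differed by -0.22 ± 0.10 (adjusted p = 0.685). The 11 HLA class I and peptide loading genes had a median of 0.11 with 10 above 0, or 0.05 with 8 above 0 under median scaling and 0.05 with 9 above 0 without the 2 dim arrays. HLA-E differed by 0.44 ± 0.11 (adjusted p = 0.0953). The 12 interferon response genes had a median of 0.09 (0.06 without the 2 dim arrays), with IFI6 at 0.45 ± 0.11 (adjusted p = 0.0703). Of 12 mesenchymal transition genes 3 were above background, with a median of -0.04 (-0.12 under median scaling and -0.10 without the 2 dim arrays). VIM differed by -0.04 ± 0.09.

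No fibroblast, blood cell or endothelial marker passed the test between the vectors. Above background were 5 fibroblast, 5 blood cell and 1 endothelial markers, with medians of 0.10, -0.12 and 0.23. Without the 2 dim arrays the fibroblast median was -0.01 and the endothelial marker stood at 0.14. The fibroblast markers DCN, PDGFRB and THY1, the leukocyte markers CD3E and PTPRC and the endothelial markers CDH5, CLDN5, KDR and VWF were below background on all 6 vector arrays. COL1A1 was so on all 3 YAP mutant arrays but not on every control vector array. Other markers were present: 5 of 9 blood cell markers lay above background on all 3 arrays of each vector group. Of 8 fibroblast markers, 4 did so on the YAP mutant arrays and 3 on the control vector arrays. The summed fibroblast signal ran from 5834 to 7802 on the YAP mutant arrays and from 5962 to 7411 on the control vector arrays. That of blood cell markers ran from 6936 to 7796 on the YAP mutant arrays and from 7622 to 8715 on the control vector arrays. The arrays measured RNA of whole cultures, in which fewer cells making a transcript and less of it per cell cannot be told apart.

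**Figure D5:**
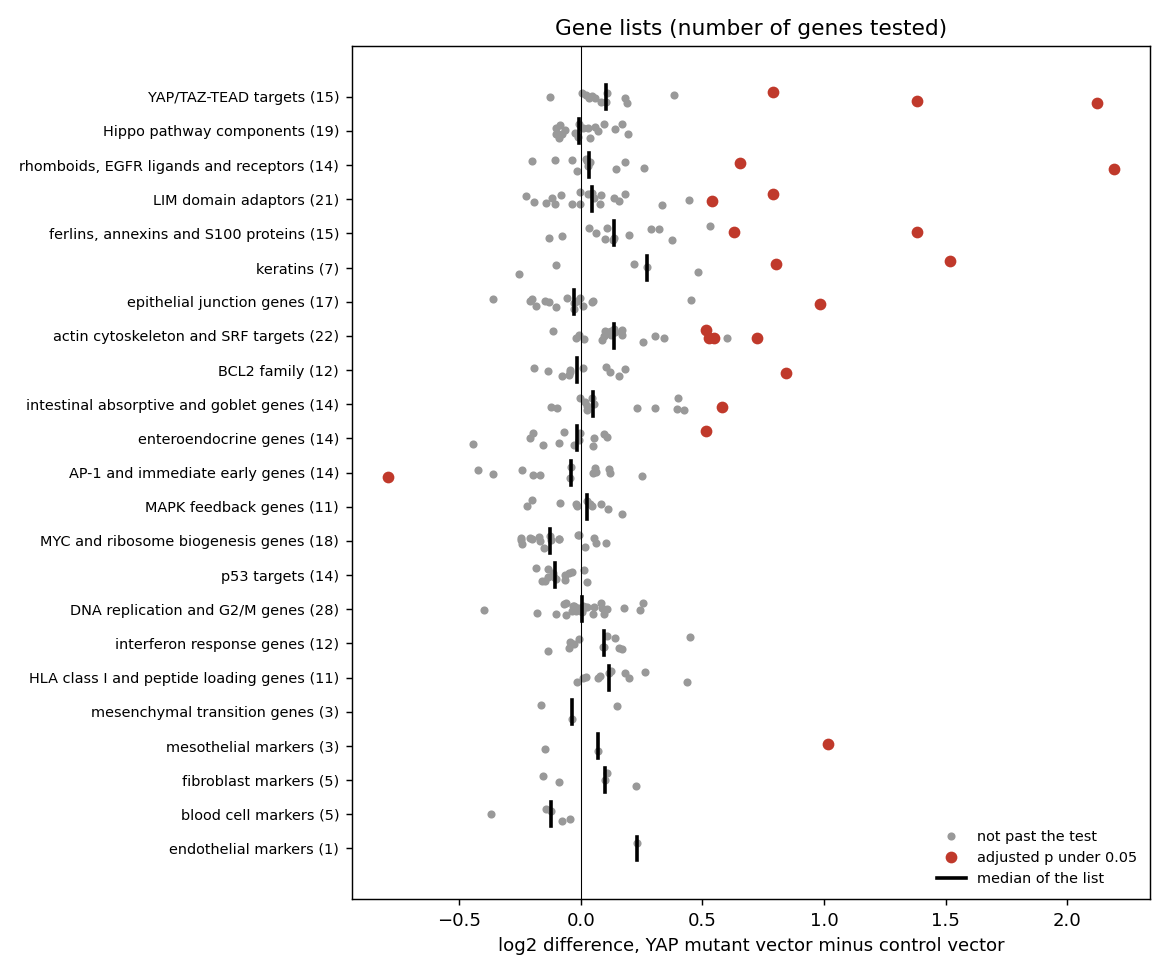
Log2 difference (x axis, YAP mutant vector minus control vector) of every tested gene of 23 gene lists (rows, with the number of genes tested). Red points passed an adjusted p under 0.05, grey points did not, and black ticks are list medians: the medians lie between -0.12 and 0.27, and no list holds more than 4 red genes.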

How the data were processed

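Total RNA of NCI-H716 cells was hybridised to Illumina bead arrays, and arrays were grouped by the labelled treatment. The first deposited table, exported with BeadStudio per the submitters' processing notes, has raw probe intensity for 47230 probes on 9 arrays and no detection p. The BeadStudio version is not given in the sources used here. A further deposited table has log2 values with no stated normalization. Quantile normalization of the raw intensities gave the same log2 values within 0.005, and this table served as an alternative. All sample columns were used (0 left out), and 0 pairs of arrays were identical.

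In limma 3.58.1 (R 4.3.3), intensities were corrected for background by normexp with an offset of 50, quantile normalized and converted to log2. With no detection p in the table, each array got a floor, the mode of its raw log2 signals plus 1.645 SD of their lower side. A probe above the floor of 3 or more arrays was kept; 20227 probes passed, of which 19262 had a name. Of 464 olfactory receptor probes, 5.39% to 6.68% lay above that floor. File symbols were updated through RefSeq names (27036 current, 4626 through a synonym, 12244 kept as in the file, 3270 unnamed and 54 bearing a date). The brightest kept probe stood for a gene. EIF5AL1 passed the filter by the narrowest margin and LOC390877 missed it by the narrowest.

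All 9 arrays entered 1 limma fit with group means as coefficients (6 residual and 15.8 prior degrees of freedom). Tests were 2-sided, with Benjamini-Hochberg adjustment over 14634 genes. Errors are the model's standard errors. A fold against a group above background on no array is a bound against the floor. The adjusted p of such a gene belongs to its fitted difference, which uses signals under the floor, and is no test of the bound. Named genes were YAP1 and the marker genes CCN2, RHBDF1, BCL2L1 and CGN, called genes, up to 4 members of each of 23 lists (398 genes) with the smallest p, and CCN1, ANKRD1, AREG, AXL, GCG and CHGA. Loci without an approved symbol, and genes below background, were named after their values were seen. A few genes of the rule and the marker lists are counted but not reported here. The members and lists were chosen with earlier results of these data known. The fit was also run on simulated data with independent noise for each probe and array and only a mean shift between arrays. Those data do not bear on how the calls depend on single arrays or on scaling. Promoters came from RefSeq (GRCh38.p14) and were matched by symbol.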

Additional observations from a re-analysis of the deposited data

How the results depend on the processing

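Between the vectors 53 genes were called, and 10 remained under median scaling and 26 without both dim arrays (control vector replicate 3 and YAP mutant replicate 1). A fit of only the 6 arrays compared gave 39, the other alternatives that kept all 9 arrays gave 48 to 68, and leaving out each array in turn gave 23 to 55. Set against untreated cells, the YAP mutant vector gave 811 genes, 181 under median scaling, 525 with array brightness as a covariate, and 484 to 864 without each array in turn. The control vector against untreated cells gave 348 genes, 47 under median scaling, 200 with brightness as a covariate, 161 without both dim arrays, and 161 to 375 without each array in turn. The cause of these changes was not tested, though fits without arrays rest on fewer samples. No pairing by replicate number entered the reported fit. In the vector groups the deviations of same-numbered arrays from their group means correlated at -0.0397, 0.101 and 0.083. YAP mutant replicate 1 correlated best with control vector replicate 3 (0.0679). YAP mutant replicates 2 and 3 each correlated best with the control vector array of the same number. With a replicate block 68 genes were called between the vectors, all 53 among them, and against untreated cells the block gave 856 for the YAP mutant vector and 384 for the control vector. None of the 53 called genes changed sign in an alternative in which it was tested, while 9 of 69 other genes of the naming rule, with differences of up to 0.23 in size, did in at least 1. Signal over background sets a limit for dim genes: MSLN, KRT80, SEMA3B and RBMS2 lay above background on no control vector array, and LOC731658 on no YAP mutant array, and their folds are bounds.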

Other observations

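Of the probes above background, 965 bore no gene name. None (0) of them passed an adjusted p under 0.05 between the vectors in limma, over 20227 probes of which 0.297% passed. An unadjusted p under 0.05 was found for 63 of the 965, beside 957 of the 14634 genes tested.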
